A study of Mus musculus with 28 samples.

Results

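Uroplakins are membrane proteins of the apical surface of the urothelium, the lining of the bladder and ureter. Here 5 mouse genes of the family, Upk1a, Upk1b, Upk2, Upk3a and Upk3b, were followed through the germ layers and the early endodermal organs. All 5 were found among the 16593 gene symbols on the array, through 9 of its 25697 probes. They were chosen by their measured levels, since Upk1b and Upk2 were highest in the esophagus, and levels there are therefore given as a description, with no test.

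The study measured RNA from mouse embryos on Illumina MouseRef-8 v2 bead arrays, with 28 arrays in 9 groups. Endoderm, ectoderm and mesoderm came from embryos at E8.25 with 4 to 6 somites, 3 arrays each. Endoderm of the esophagus, lung, stomach, liver and intestine came from E11.5 embryos, 3 arrays each, and that of the pancreas had 4 arrays. Each E11.5 sample held organ domains dissected from 10 to 12 embryos, pooled and then sorted by flow cytometry for endoderm. The labels name no strain, genotype, treatment or sort marker, nor how ectoderm and mesoderm were isolated. P-values measure the spread between arrays of the same group, which at E11.5 are such pools.

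In the urothelium, uroplakins assemble into rigid plaques that cover the luminal face of the umbrella cells. Upk1a and Upk1b are tetraspanins, and each leaves the endoplasmic reticulum with a partner that spans the membrane a single time: Upk1a with Upk2, and Upk1b with Upk3a or Upk3b. The bladder lining itself arises from the cloacal endoderm, the hindmost part of the gut tube. Upk3b is also known as a marker of mesothelium, the flat cell layer over the internal organs.

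Promoter sequences of the mouse genome build GRCm38.p6 were found in the RefSeq table for 3 of the 5 genes, and these 3 genes were all above background in E8.25 endoderm. The 250 bases upstream of each start site are shown 5′ to 3′ on the strand of the gene, at chr7:30612735-30612984 on the minus strand for Upk1a, at chr15:85016891-85017140 on the plus strand for Upk3a and at chr5:136038246-136038495 on the plus strand for Upk3b. Capitals mark a match to one of 3 short motifs, searched on both strands. The motif TTTATG is that of the Cdx factors of the hindgut. Grainyhead-like factors of epithelia bind AACNGGTT, and factors of the GATA family bind the letters AGATAA.
Upk1a: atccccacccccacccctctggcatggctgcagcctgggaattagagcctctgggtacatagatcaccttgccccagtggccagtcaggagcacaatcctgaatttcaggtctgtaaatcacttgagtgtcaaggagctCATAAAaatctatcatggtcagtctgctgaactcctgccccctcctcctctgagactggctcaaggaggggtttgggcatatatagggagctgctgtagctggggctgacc
Upk3a: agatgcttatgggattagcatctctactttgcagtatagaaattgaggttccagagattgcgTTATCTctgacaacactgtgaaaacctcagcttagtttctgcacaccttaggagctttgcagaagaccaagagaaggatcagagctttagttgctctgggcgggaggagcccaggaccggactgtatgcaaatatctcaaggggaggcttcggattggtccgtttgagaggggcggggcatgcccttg
Upk3b: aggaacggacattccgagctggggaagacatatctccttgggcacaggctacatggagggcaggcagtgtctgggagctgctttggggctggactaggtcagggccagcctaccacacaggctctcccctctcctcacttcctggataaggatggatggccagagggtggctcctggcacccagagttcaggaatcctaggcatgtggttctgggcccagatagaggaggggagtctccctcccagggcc
The Upk1a promoter held TTTATG on the opposite strand, with its first base at -111 from the start. The Upk3a promoter held AGATAA on the opposite strand, at -188, and the Upk3b promoter held none of the 3. Among 32851 mouse promoters of the same length, 10.8% held TTTATG, 1.79% held AACNGGTT and 9.99% held AGATAA. A match is a string of letters in a window and shows no binding.

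Levels are log2 intensities after background correction and quantile normalization. A probe was taken as above background on an array if it exceeded the 99th percentile of the 1362 sensory receptor probes there, which lay between 6.26 and 7.48. The highest of these thresholds was that of pancreas 3, which had 7083 probes above it, and the next that of intestine 3, with 9664, against 10843 to 12862 on the other arrays. Within groups r between arrays ranged from 0.946 to 0.995, and 27 of the 28 arrays were closest to an array of their own group. On 8 arrays, those of mesoderm and liver with lung 1 and stomach 1, deposited intensities all stayed below 20000, and this array class served as a block in an alternative fit. The class holds every mesoderm and liver array and varies within groups only in lung and stomach. That fit therefore carries the deviations of lung 1 and stomach 1 over to mesoderm and liver. Most markers fixed for each label were above background in their own group, but only 2 of 5 in ectoderm and 2 to 3 of 4 in stomach. Cldn18 was above on 2 of 3 stomach arrays and Tff2 on 0, whereas Sox2 was above on all 3. Stomach markers, summed, were higher in esophagus, at 2276 to 2478, than in stomach itself, at 796 to 1044. Markers of liver, summed, were also high in pancreas, at 25542 to 27407 against 30412 to 45373 in liver. Ectoderm markers, summed, overlapped between E8.25 endoderm, at 1357 to 2021, and ectoderm, at 1644 to 2539.

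Differences below come from a limma fit of 9651 genes on all 28 arrays, adjusted by Benjamini-Hochberg within each comparison. A gene is called if its adjusted p is under 0.05 and its change at least 2-fold. All 5 members entered the fit, each through the groups in which it was above background. No comparison is given for a gene that was at background in every group involved.

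**Figure D1:**
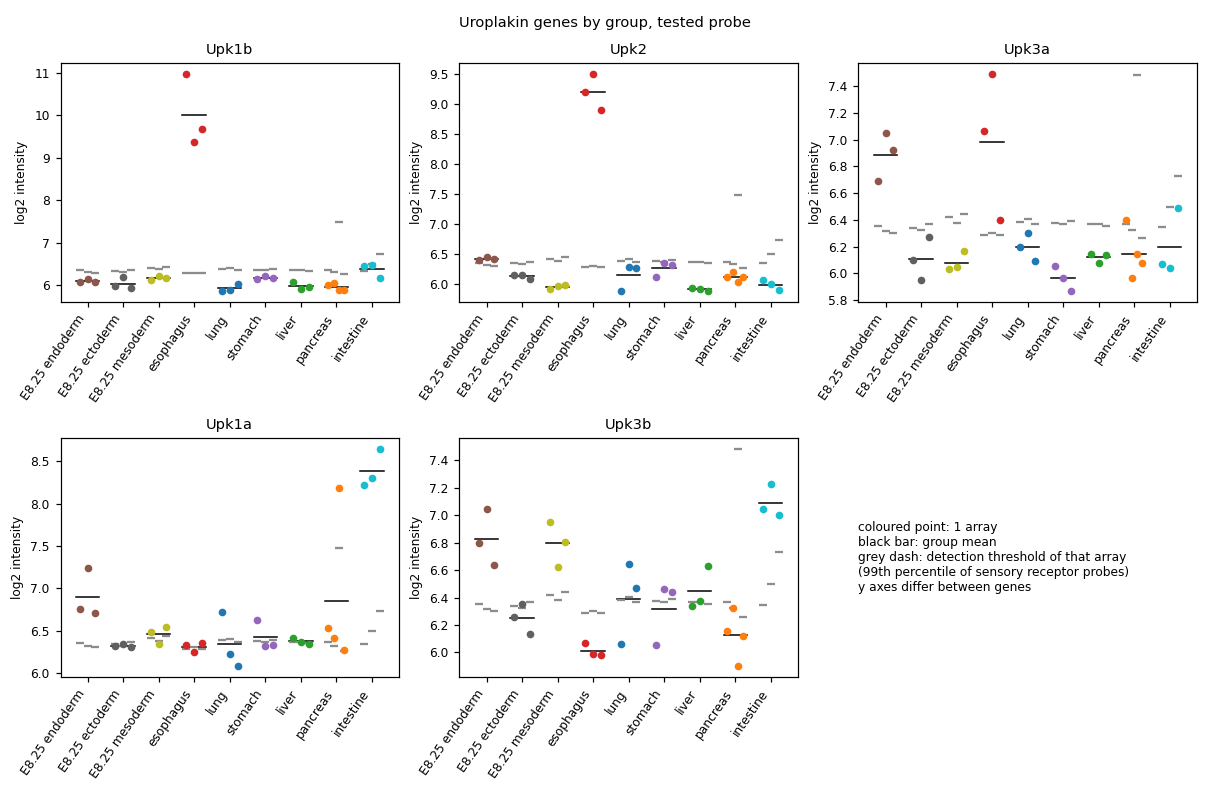
Log2 intensity of the tested probe of each uroplakin gene on 28 arrays, 1 point per array by group, with group means as black bars and each array's detection threshold as a grey dash. Upk1b and Upk2 stand apart in esophagus, Upk3a is above its thresholds in esophagus and E8.25 endoderm, and Upk1a and Upk3b are highest in intestine.

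Upk1b, the tetraspanin that partners Upk3a and Upk3b, was far above background in the esophagus alone. Its log2 intensity was 10.97, 9.37 and 9.68 on the 3 esophagus arrays, from deposited intensities of 1886, 644 and 796. On the other 25 arrays it stayed at or below 6.49. The esophagus arrays do not overlap with any other array, and esophagus 1 lies well above its replicates. The next group was intestine, at 6.47, 6.49 and 6.17, where 1 of the 3 arrays was above its threshold. The esophagus mean exceeded the mean of the other 5 organs by 3.91, or at least 12.0-fold where organs at background are set to their threshold. In that contrast 6.47% of all genes were called, and 413 of 9651 genes (4.28%) had all esophagus values above the other 25 arrays. A second Upk1b probe was above background on 0 arrays, with 5.80, 5.78 and 6.22 in esophagus, and its r with the first was 0.31 over 28 arrays. The esophageal level of Upk1b therefore rests on 1 probe.

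Upk2, the single-pass partner of Upk1a, was the other gene with a high level in the esophagus. It read 9.20, 9.50 and 8.90 there, and at most 6.44 on the other 25 arrays. The groups do not overlap, as for 4.28% of all genes. The difference from the mean of the other 5 organs was 3.12, at least 6.72-fold. None of those 5 organs had an array above background for Upk2. In E8.25 endoderm Upk2 was just above background, at 6.39, 6.44 and 6.40, on all 3 arrays. Ectoderm read 6.15, 6.15 and 6.08 and mesoderm 5.91, 5.96 and 5.98, all below threshold. Against mesoderm the fitted difference was 0.46 ± 0.12 (SE, adjusted p = 0.0042), in a comparison in which 35.5% of genes had an adjusted p under 0.05 and 8.63% were called. It was not called, and no fold can be given, since the endoderm mean did not exceed the mesoderm thresholds. With array class as a block it was 0.16 (adjusted p = 0.49). Against ectoderm the difference was 0.29 ± 0.12 (adjusted p = 0.16), where 10.1% of genes had an adjusted p under 0.05 and 2.83% were called.

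Upk3a, a single-pass partner of Upk1b, was above background on all arrays of 2 groups, E8.25 endoderm and esophagus, at levels that overlapped. Endoderm gave 6.69, 7.05 and 6.92. Esophagus gave 7.07, 7.49 and 6.40, the widest spread of any group for this gene. Of the other 22 arrays only pancreas 1, at 6.40, passed its threshold. The difference between the esophagus and E8.25 endoderm means was 0.10, against an SD of 0.55 within esophagus (n = 3). Ectoderm read 6.10, 5.95 and 6.27 and mesoderm 6.03, 6.05 and 6.16. Endoderm exceeded ectoderm by 0.78 ± 0.18 (adjusted p = 0.0048), at least 1.46-fold, and mesoderm by 0.81 ± 0.18 (adjusted p = 0.0014), at least 1.39-fold. Both are under 2-fold and were not called, but with an offset of 16 in the background correction they were 1.28 and 1.32 and were called.

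The 5 organs other than esophagus lay below E8.25 endoderm in Upk3a by 0.76 ± 0.14 (adjusted p = 1.1e-04), at least 1.44-fold. In this comparison 45.1% of genes had an adjusted p under 0.05 and 7.21% were called. With an offset of 16 the Upk3a difference was -1.25 and was called. Intestine, next in order below endoderm, read 6.07, 6.04 and 6.49 and differed from it by 0.69 ± 0.18 (adjusted p = 0.0050, in a pair with 33% of genes under 0.05). With the replicate number within each stage as a block its adjusted p was 0.085. Among the groups ranked below intestine no neighbours had an adjusted p under 0.05. For Upk2 the fitted difference of the 5 organs from E8.25 endoderm was -0.33 ± 0.09 (adjusted p = 0.0048). All 5 organs were at background for Upk2. With organs set to their thresholds the Upk2 difference was 0.04, so neither its direction nor a fold can be given.

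Surface ectoderm markers had their highest sums in the 2 groups with Upk3a signal, though 5 to 7 of the 9 were also above background in ectoderm and 4 to 5 in mesoderm. This list of 9 genes (Tfap2a, Tfap2c, Dlx3, Dlx5, Wnt6, Trp63, Grhl3, Krt5 and Msx2, known from embryonic skin and other stratifying epithelia) was written down after values had been seen. Its summed intensity was 3294 to 4135 in E8.25 endoderm, 1475 to 1668 in ectoderm, 802 to 843 in mesoderm, 6018 to 7739 in esophagus and at most 956 in the other organs. Of 8 members tested, 5 were higher in endoderm than in ectoderm, where 2.83% of all genes were called. Their median difference was 1.21 against -0.02 over all genes. In esophagus 7 were higher than in the other 5 organs, where 6.47% of all genes were called. Since the list followed the values, these counts are a description and no test. Tfap2c, which encodes an AP-2 factor, read 10.07 in endoderm and 8.85 in ectoderm on average, and Trp63, the master regulator of stratified epithelia, 7.89 and 6.13. The part of such cells in the Upk3a and Upk2 values of E8.25 endoderm was not tested. In RNA from whole samples, fewer cells of a type and less RNA per cell cannot be told apart.

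**Figure D2:**
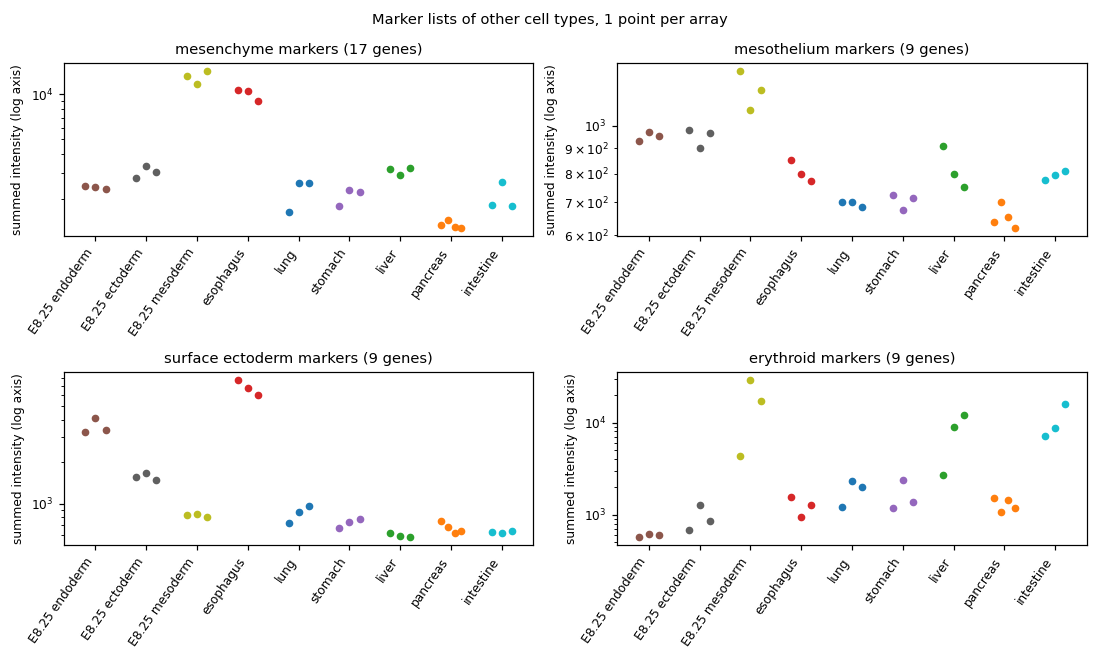
Summed intensity of 4 marker lists on each of the 28 arrays, by group, on log axes. Mesenchyme markers are high in mesoderm and esophagus, surface ectoderm markers in esophagus and E8.25 endoderm, and erythroid markers in mesoderm, liver and intestine.

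Upk1a, the tetraspanin partner of Upk2, was highest in the intestine, where Upk2 itself was at background on all 3 arrays. Its tested probe read 8.22, 8.30 and 8.64 in intestine, from deposited intensities of 257, 272 and 365. Lung read 6.72, 6.23 and 6.08, stomach 6.63, 6.31 and 6.33, and liver 6.42, 6.37 and 6.34. The intestine arrays lie above every other array, as they do for 1.54% of all genes, with pancreas 3 close to the lowest of them. Pancreas read 6.54, 6.42, 8.18 and 6.27, so that 1 array of 4 stands far above its replicates. Upk1a rose in intestine over the mean of the other 4 organs by 1.89 ± 0.24 (adjusted p = 1.4e-06), or 3.71-fold. It was 2.46 with an offset of 16 and 2.74 without background correction, so the size of the fold depends on the correction. In this comparison 4% of all genes were called, and 2.86% of all genes were called higher. Without pancreas 3 the difference was 2.00 (adjusted p = 1e-11).

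The second Upk1a probe gave the same order at the top, and no signal in pancreas 3. It read 7.67, 7.52 and 8.01 in intestine and 6.51, 6.80 and 6.45 in E8.25 endoderm, and was above background on no other array. In pancreas it read 6.01, 5.98, 6.01 and 6.05, and the deposited intensity of pancreas 3 was -23.7, against 259.5 on the first probe. The r between the 2 probes was 0.86 over 28 arrays. In a fit of 13103 probes the second probe gave a difference of 1.81 ± 0.08 for intestine (adjusted p = 4.3e-14), close to that of the first.

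**Figure D3:**
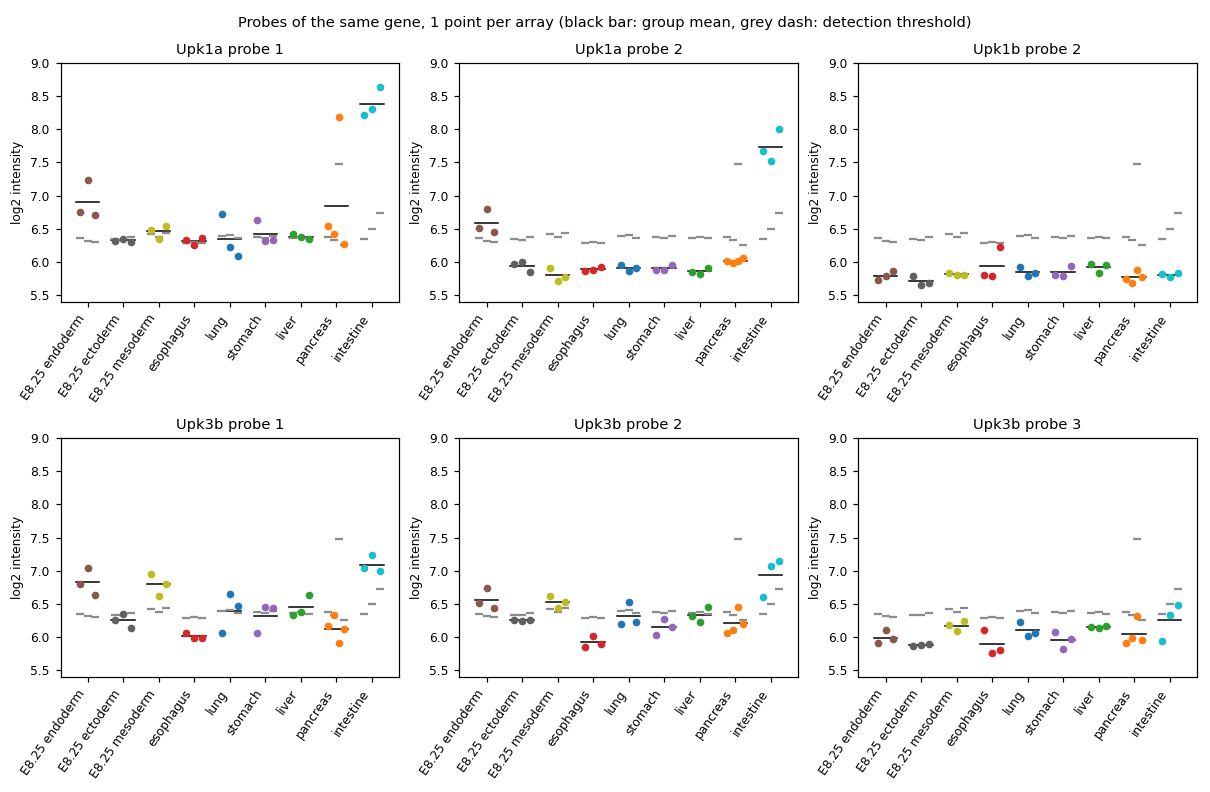
Log2 intensity on each array for the 2 probes of Upk1a, the second probe of Upk1b and the 3 probes of Upk3b, with group means as black bars and detection thresholds as grey dashes. The high Upk1a value of pancreas 3 on probe 1, at 8.18, is absent from probe 2, which reads 6.01 there.

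E8.25 endoderm was second in the order of Upk1a levels, at 6.75, 7.24 and 6.71 on the tested probe. Ectoderm read 6.32, 6.34 and 6.31 and mesoderm 6.49, 6.34 and 6.54. Intestine exceeded endoderm by 1.49 ± 0.30 (adjusted p = 4.4e-04). Endoderm against ectoderm gave 0.58 ± 0.30 (adjusted p = 0.32) and endoderm against mesoderm 0.44 ± 0.30 (adjusted p = 0.27). Without pancreas 3 the SE of both was 0.15, and the adjusted p was 0.011 and 0.024. The second probe gave 0.65 ± 0.10 (adjusted p = 1.3e-04) and 0.79 ± 0.10 (adjusted p = 4.0e-06). None of these reached 2-fold. Below endoderm no neighbours in the order had an adjusted p under 0.05 with all arrays, and the 5 organs together differed from it by -0.02 ± 0.23 (adjusted p = 0.95). Without pancreas 3, endoderm exceeded pancreas, its neighbour, by 0.49 (adjusted p = 0.011). On the second probe the 5 organs were below endoderm by 0.30 ± 0.08 (adjusted p = 0.0042).

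For the other organs, the mean on the far side of each Upk1a comparison includes the high level of intestine. Lung was lower by 0.67 ± 0.24 (adjusted p = 0.042, 24.8% of genes under 0.05 and 4.67% called). Liver was lower by 0.63 ± 0.24 (adjusted p = 0.031, 51.3% under 0.05 and 13.3% called). Stomach differed by -0.57 ± 0.24 (adjusted p = 0.10, 20.4% and 3.41%), and by -0.45 with adjusted p = 0.0068 without pancreas 3. Pancreas differed by -0.03 ± 0.21 (adjusted p = 0.92), but by -0.48 with adjusted p = 0.0041 without pancreas 3. None was called. The adjusted p of lung passed 0.05 without lung 2, lung 3, stomach 1, liver 1, liver 2 or intestine 3, reaching 0.23 without lung 3. That of liver passed it without any 1 of the liver arrays, reaching 0.087 without liver 2. On the second probe, where these 4 organs were at background and intestine was not, the differences were -0.47 for lung (adjusted p = 1.2e-04), -0.48 for stomach (adjusted p = 1.4e-04), -0.53 for liver (adjusted p = 8.8e-06) and -0.34 for pancreas (adjusted p = 0.0013).

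Upk3b, the single-pass partner of Upk1b known from mesothelium, was above background on all arrays of intestine, E8.25 endoderm and mesoderm, and on none of esophagus. Intestine read 7.04, 7.23 and 7.00, endoderm 6.80, 7.05 and 6.64, and mesoderm 6.95, 6.62 and 6.80. Endoderm overlaps with both other groups, and neighbouring pairs in this order were not distinguished by the fit (adjusted p = 0.18 and 0.89). Ectoderm read 6.26, 6.35 and 6.14. Esophagus read 6.07, 5.99 and 5.98, the lowest group mean of the 9. Upk3b was thus at background where its partner Upk1b was high.

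Endoderm exceeded ectoderm in Upk3b by 0.58 ± 0.15 (adjusted p = 0.010), which became 0.47 (adjusted p = 0.095) without endoderm 2 and 0.52 (adjusted p = 0.063) without ectoderm 3. Ectoderm was lower than mesoderm by 0.54 ± 0.15 (adjusted p = 0.0083), in a comparison with 26.3% of genes under 0.05 and 5.54% called. Without mesoderm 1 that difference was -0.47 (adjusted p = 0.051), and with array class as a block -0.99. Endoderm and mesoderm differed by 0.03 ± 0.15 (adjusted p = 0.89), and by -0.41 (adjusted p = 0.086) with array class as a block. None of the 3 was called.

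Among the organs, intestine exceeded the mean of the other 4 in Upk3b by 0.77 ± 0.12 (adjusted p = 2.0e-05, 23.6% of genes under 0.05), or 1.70-fold. This is under 2-fold and was not called. With an offset of 16 it was 1.18 and without background correction 1.41, and both were called. The second Upk3b probe read 6.60, 7.08 and 7.15 in intestine and was above background on all arrays of the same 3 groups as the first, with r of 0.85 between them. The third was above background on 0 arrays. Pancreas was lower than the mean of the other 4 organs by 0.44 ± 0.10 (adjusted p = 0.0025, 30.2% of genes under 0.05 and 4.76% called), at 6.16, 6.32, 5.90 and 6.12. Lung, at 6.06, 6.65 and 6.47, stomach, at 6.05, 6.46 and 6.44, and liver, at 6.34, 6.38 and 6.63, gave adjusted p = 0.59, 0.28 and 0.83. Lung 1 and stomach 1, both without intensities over 20000, were the lowest of their groups. The 5 organs were below E8.25 endoderm by 0.35 ± 0.11 (adjusted p = 0.015), and by 0.24 (adjusted p = 0.16) without endoderm 2.

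Markers of the cell types that could carry Upk3b were read on the same arrays. Of 6 mesothelium markers tested, 0 were higher or lower in intestine, which is near the 4% of all genes called there. The summed intensity of the 9 on the array was 776 to 810 in intestine and 621 to 908 in the other 4 organs of that comparison. It was 1078 to 1293 in mesoderm, 933 to 973 in E8.25 endoderm, 902 to 979 in ectoderm and 774 to 851 in esophagus. Msln, the defining surface protein of mesothelium, was above background on 0 of 3 intestine arrays, whereas Wt1, a transcription factor of mesothelium, was above on all 3, at a mean of 7.38. Mesenchyme markers summed to 1786 to 2603 in intestine and erythroid markers to 7185 to 16029, against at most 2405 in lung, stomach and pancreas and 2667 to 12076 in liver. Of 8 erythroid markers tested 4 were higher in intestine, where 2.86% of all genes were. The median difference of the 8 was 1.15 against -0.0037 over all genes, with the globin genes Hba-a1 at 2.72 and Hbb-y at 2.51. In esophagus the mesenchyme sum was 9032 to 10714 against at most 3233 in the other organs. Of 14 mesenchyme markers tested, 3 were higher there and 0 lower, where 6.47% of all genes were called. Their median difference was 0.42 against -0.02 over all genes. Among the 3 were Dcn, a matrix proteoglycan, 4.28 higher and Acta2, smooth muscle actin, 3.28 higher. Of the 17 on the array, 11 to 13 were above background in esophagus and 11 to 12 in liver. The part of these cells in the uroplakin values was not tested.

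**Figure D4:**
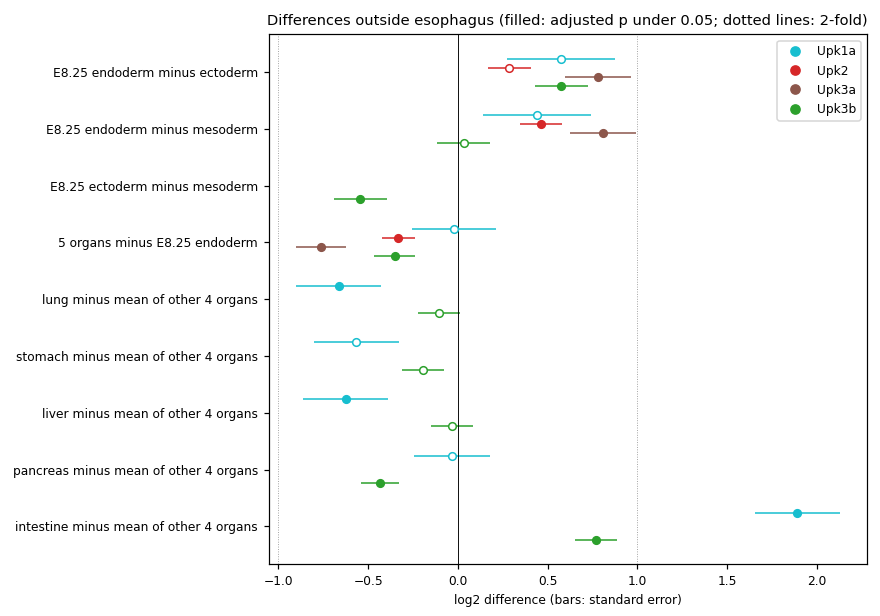
Log2 differences with standard errors for Upk1a, Upk2, Upk3a and Upk3b in 9 comparisons that leave out esophagus, shown where the gene was above background on all arrays of at least 1 group. Filled points have an adjusted p under 0.05, dotted lines mark 2-fold, and Upk1a in intestine, at 1.89, is the only point beyond them.

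The 5 genes did not share a single pattern across groups. Over 28 arrays r between Upk1b and Upk2 was 0.96, but over the 25 arrays without esophagus it was 0.05, so that their likeness lies in that organ. Upk1a and its partner Upk2 had r of -0.23, and Upk1b and Upk3b -0.33. Upk1b and Upk3a had r of 0.59, and -0.10 without esophagus. These are descriptions over arrays that share groups, and most values outside the high groups are at background.

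The genes most like each member over 28 arrays are given by r, as a description. For Upk2 they were Krt17 (0.996), a keratin of stratified epithelia, Lypd3 (0.991), Col17a1 (0.981), a hemidesmosome collagen, Sfn (0.979) and Foxe1 (0.977). Without esophagus r was 0.90 with Krt17, 0.70 with Lypd3, 0.60 with Sfn, 0.54 with Foxe1 and 0.29 with Col17a1. On those arrays Upk2 was above background in E8.25 endoderm alone. Krt17 averaged 11.91 in esophagus and 6.63 in E8.25 endoderm. For Upk1b they were Casp14 (0.972), Foxe1 (0.968), Col17a1 (0.968), Cbr2 (0.962) and Slc7a10 (0.959), and without esophagus no r among these exceeded 0.17.

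Upk3a was most like Grhl3 (0.832), a grainyhead-like factor that is known to be needed for umbrella cell differentiation, followed by Vsig8, Tmprss13, Bcl9l and Pax9 (0.802). Grhl3 averaged 7.93 in esophagus and 7.15 in E8.25 endoderm and was above background on 1 of the remaining 22 arrays. For Upk1a the closest were Calml4 (0.897), a calmodulin-like protein, B4galnt2 (0.887), a glycosyltransferase, Fam107b, Fstl4 and Lama2 (0.851). B4galnt2 averaged 9.58 in intestine and 6.71 in E8.25 endoderm and was above background in no other group, as was the second Upk1a probe. For Upk3b r was lower, from Pisd-ps2 (0.821) to Hoxd8 (0.754), with Alpk3, Mvp and Cldn2, a tight junction claudin, between.

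**Figure D5:**
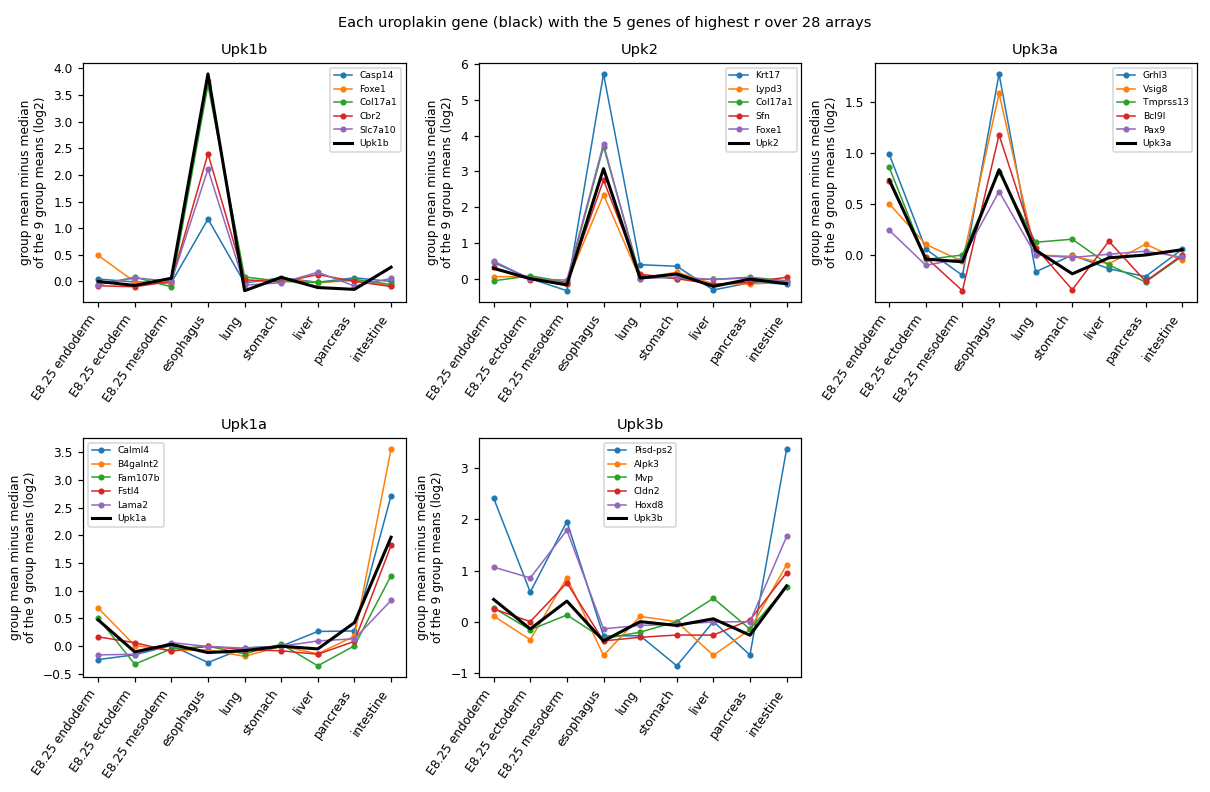
Group means of each uroplakin gene (black) and of the 5 genes with the highest r to it over 28 arrays, each minus the median of its own 9 group means, in log2 units. Genes near Upk1b and Upk2 are highest in esophagus, those near Upk3a in esophagus and E8.25 endoderm, and those near Upk1a in intestine.

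Genes that regulate or accompany uroplakins in the urothelium were read from a list of 19, of which 17 were tested. In E8.25 endoderm 10 were higher and 0 lower than in ectoderm, with a median difference of 1.30 against -0.02 over all genes. Against mesoderm 11 were higher and 0 lower, with a median of 1.19 against 0.05. The simple keratins Krt18 and Krt8 were 2.53 and 2.27 higher than in ectoderm, the pioneer factor Foxa1 2.44 and Grhl2 2.39. Of all genes, 2.83% were called against ectoderm and 8.63% against mesoderm. Most genes of the list act in endodermal epithelia in general. Of 7 epithelium markers 5 were higher against ectoderm, but Krt8 and Krt18 are in both lists.

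In intestine 7 of the 17 were higher and 0 lower, with a median of 0.83 against -0.0037 over all genes, of which 4% were called. Shh, the hedgehog ligand of gut epithelium, was at least 14.0-fold higher, Klf5 2.42 higher on the log2 scale, Foxa1 1.98 higher and Krt19 at least 3.32-fold. In esophagus 7 were higher and 1 lower, where 6.47% of all genes were called. The higher ones included Shh at least 5.28-fold, Klf5 by 2.06 and Grhl3 at least 2.80-fold. Stomach had 9 higher and 1 lower, while Upk1b, Upk2 and Upk3a were above background on 0 of its 3 arrays, Upk1a on 1 and Upk3b on 2. The stomach median was 1.04 against 0.01 over all genes, of which 3.41% were called. Pancreas had 0 higher and 7 lower, with a median of -0.52 against -0.04 and 4.76% of all genes called. Liver had 1 higher and 8 lower, with a median of -0.74 against -0.06 and 13.3% called. Lung had 4 higher and 1 lower but a median of -0.31, against 0.02 and 4.67% called.

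Most tested genes of stratified epithelia were higher in esophagus than in the other organs. Of the 20 genes of that list on the array, 14 were tested, and of these 12 were higher in esophagus and 0 lower. Their median was 2.65 against -0.02 over all genes, of which 6.47% were called. A gene could enter the test through esophagus alone, where 14 to 15 of the 20 were above background, against at most 10 on arrays of other groups. The count is therefore a description. Krt17 was at least 41.9-fold, Krt15, a basal cell keratin, at least 45.5-fold, and Trp63 at least 39.3-fold higher. In intestine 1 of the 14 was higher and 1 lower, where 4% of all genes were called.

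Of 11 transport genes of uroplakin vesicles tested, 2 were called in lung, Sytl2 by at least 2.49-fold and Mal by at least 1.90-fold, where 4.67% of all genes were called. In esophagus 1 was called, Rab8b at 1.08, against 6.47% of all genes, and in E8.25 endoderm against ectoderm 1, the fusion protein gene Vamp8 at 1.43, against 2.83%. In intestine 0 were called, against 4% of all genes. The list medians were -0.02, 0.09, 0.06 and -0.08 in these 4 comparisons. Of 21 tetraspanins tested besides the uroplakins, 1 was higher in intestine, Tspan8, by at least 7.93-fold, where 2.86% of all genes were called higher. The same gene was the 1 lower in esophagus, by at least 5.11-fold, where 6.47% of all genes were called. Both counts are near these shares. Tspan8 was at background in esophagus, where Upk1b was high, and also in liver.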

How the data were processed

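The deposited values are probe intensities on a linear scale, 25697 probes on 28 arrays. BeadStudio is named in the submitters' processing notes, with no role. How they were scaled or background-corrected is not stated in the labels. A further deposited table of 112 columns carries array identifiers that no label gives and was not used. Per the labels, groups and replicate numbers were read from the sample titles.

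From the deposited intensities, normexp background correction (offset 50, no control probes), quantile normalization and log2 were computed with limma 3.58.1 in R 4.3.3. Of 16593 symbols, each by its probe with the highest mean, 9651 genes were tested, having that probe above background on every array of at least 1 group. A linear model with 9 group means was fitted, moderated by eBayes, without covariates, and checked on simulated data. Where every array of a group was below threshold, folds are bounds against the threshold. With 3 or 4 arrays a group, their number limits precision.

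The members, gene lists and tests were chosen with earlier results of these data known. For each member, the 5 genes of highest r over 28 arrays are named, and for each list up to 4 called genes of largest size. In E8.25, same-numbered arrays deviated together for endoderm with ectoderm (r 0.33 to 0.37) and ectoderm with mesoderm (0.26 to 0.40), but less for endoderm with mesoderm (lowest 0.080). Among organs they did so for lung with stomach (0.63 to 0.88), pancreas with intestine (0.56 to 0.67), liver with intestine (0.29 to 0.38), liver with pancreas (0.11 to 0.47) and esophagus with liver (0.15 to 0.21). The blocked alternative used the replicate number within each embryonic stage. The labels name no shared litter or day. Alternatives were other background corrections, scalings, probes, blocks, array weights and left-out arrays.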

Additional observations from a re-analysis of the deposited data

Results flagged for a closer look

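Among 9 probes tested in the 4 pancreas arrays, Upk1a probe 1 had a value far from the others. Pancreas 3 read 8.18 against 6.54, 6.42 and 6.27, a gap of 0.86 of the whole range. Chance flags about 1 in 20 such groups. The second Upk1a probe read 6.01 on that array, which also had the highest detection threshold, 7.48, and 11861 deposited intensities below 0. Groups of 3 arrays were not examined in this way.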

How the results depend on the processing

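Counting each uroplakin difference with each array left out, 21 cases crossed an adjusted p of 0.05. They were for Upk1a in lung and liver, Upk1a without pancreas 3, and Upk3b. The call for Upk1a in intestine held under all settings tried, from 1.76 to 2.00 over omissions of 1 array, 2.46 with an offset of 16 and 2.74 without background correction. The 2 highest groups of each gene were the same without background correction, with receptor probes as negative controls, with an offset of 16 and with scaling to the 75th percentile. Without background correction, differences that were under 2-fold became calls: Upk3a at 1.61 and Upk3b at 1.12 for endoderm against ectoderm, Upk2 at 1.22 and Upk3a at 1.66 for endoderm against mesoderm, Upk3b at -1.07 for ectoderm against mesoderm, Upk1a at -1.05 in lung, Upk3b at 1.41 in intestine and Upk3a at -1.55 for the 5 organs against endoderm. With an offset of 16 the calls gained were Upk3a at 1.28, 1.32 and -1.25 in its 3 comparisons and Upk3b at 1.18 in intestine. Both settings compress dim values less by construction.

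Genes called without background correction numbered 542 for endoderm against ectoderm (273 in the main analysis), 1475 against mesoderm (833) and 1025 for ectoderm against mesoderm (535). They numbered 866 in lung (451), 652 in stomach (329), 2118 in liver (1287), 845 in pancreas (459), 747 in intestine (386), 1119 in esophagus (624) and 1355 for the 5 organs against endoderm (696). With an offset of 16 they were 443 for endoderm against ectoderm, 857 for ectoderm against mesoderm, 707 in lung, 534 in stomach, 703 in pancreas, 612 in intestine and 1101 for the 5 organs.

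Differences near 0 changed sign, and the cause was not tested. Upk3b for endoderm against mesoderm was -0.036 as the mean over probes, -0.41 with array class as a block and -0.074 with array weights. Upk3b in liver was 0.032 without background correction and 0.34 with array class as a block. Upk1a in pancreas was 0.15 with array class as a block. Upk1a for mesoderm against pancreas was 0.052 without pancreas 3 and intestine 3. Over omissions of 1 array, Upk3b ranged from -0.077 to 0.13 for endoderm against mesoderm, from -0.23 to 0.061 in lung and from -0.12 to 0.021 in liver. Upk1a ranged from -0.48 to 0.16 in pancreas, from -0.12 to 0.15 for the 5 organs, from -0.15 to 0.49 for endoderm against pancreas and from -0.59 to 0.052 for mesoderm against pancreas.

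With the replicate number as a block, Upk1a was 0.16 in pancreas, 0.050 for the 5 organs against endoderm and -0.18 for endoderm against pancreas, and no call of a uroplakin gene changed. Endoderm against intestine for Upk3a had adjusted p = 0.085 with this block. Upk2 and Upk3a outside esophagus lie close to their thresholds, so signal over background limits their folds.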
